A study of Mus musculus with 33 samples.

Results

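The genes described here are 10 molecular chaperones of the mouse hypothalamus: the cytosolic heat shock genes *Hspa1a*, *Hspa1b*, *Hspa8*, *Hspb1*, *Hsph1*, *Hsp90aa1* and *Dnajb1*, the ER chaperones *Hspa5* and *Hsp90b1*, and the mitochondrial chaperone *Hspd1*. They were taken by symbol from the 41565 named genes of a bulk RNA-seq table, and all 10 passed the filter on low values in both regions sampled, the posterior hypothalamus (PH) and the preoptic area (POA). The table holds 33 libraries of adult WT C57BL/6 female mice that were 3 to 4 months old at surgery. The intact mice were killed in diestrus before any ovariectomy (OVX) and gave 4 PH and 5 POA libraries. Mice at 14 days after bilateral OVX gave 6 libraries of each region, as did mice at 4 months after bilateral OVX. The titles of the intact libraries read sham, but their genotype label reads intact. Neither the labels nor the methods name a hormone replacement in the 2 OVX groups. The mice at 4 months were older than the others, so time after OVX and age cannot be told apart. 1 POA library carries only the number 14 as its genotype label and was placed in the 14-day group by its title. The labels do not name the animals, so the p-values below measure the spread between libraries. Per the methods, both regions were dissected from the females, so likeness between the regions may not come from separate animals.

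Heat shock proteins bind unfolded stretches of other proteins and help them to fold, to assemble or to be degraded. HSP70 proteins work in cycles of ATP hydrolysis that J-domain proteins such as Dnajb1 start and nucleotide exchange factors such as Hsph1 complete, and HSP90 proteins hold late folding states of client proteins, among them steroid hormone receptors. Heat and other proteotoxic stress raise the inducible members through heat shock factor 1 and its heat shock elements, whereas unfolded protein in the ER raises *Hspa5* and *Hsp90b1* through ER stress response elements. The POA holds neurons that sense and set body temperature.

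No member passed an adjusted p of 0.05 in any of the 6 comparisons of groups. In the fit with the covariate SV1, most members were estimated higher at 14 days than in either other group, but by little: at 4 months against 14 days the median difference over the members was -0.17 on the log2 scale in each region. In the libraries labelled batch 2 alone, most members were estimated lower at 14 days than in intact mice, in either region. Each of these 14-day groups held only 3 libraries. Among them was PH replicate 5 or POA replicate 6, which stood apart from the other libraries of the region. The member with the smallest p was *Hsph1*, 0.87-fold in the POA and 0.86-fold in the PH at 4 months against 14 days. Between the 2 labelled batches all 10 members were called in the POA, where 39.7% of all genes were, and 9 without 14-day replicate 6, which left out *Hspa5*.

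The members lie on 8 chromosomes in GRCm39 (GENCODE M39). *Hspa1a* (chr17:35188166-35191132) and *Hspa1b* (chr17:35175412-35178214), the 2 stress-inducible HSP70 genes, are neighbors on the minus strand, 9951 bases apart. Of the 31-base words in the *Hspa1a* transcript, 63.8% also occur in *Hspa1b*, and 67.7% of those of *Hspa1b* occur in *Hspa1a*. Pseudoalignment divides reads from such words between the copies, so the split between *Hspa1a* and *Hspa1b* is uncertain and their sum is given beside them. Among the other members, *Hspb1* shares 46.5% of its words with the pseudogene *Hsp25-ps1*, *Hsp90aa1* 36.0% with *Gm12346*, *Hspa5* 38.8% with annotated transcripts of *Rabepk*, and *Dnajb1* 0.236% with the gene it shares most with. *Hsph1* lies at chr5:149537636-149560156 on the minus strand, *Hspa5* at chr2:34661982-34668880 on the plus strand and *Hsp90b1* at chr10:86526073-86541446 on the minus strand.

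The promoters of the 2 HSP70 copies are printed to show how alike they are, that of *Hsph1* because it had the smallest p between groups, and those of the ER pair for the element they share. Each is the 250 bases before the annotated start (RefSeq, GRCm38.p6), written 5′ to 3′ along the gene. Capitals mark a match to a heat shock element of 2 units (GAANNTTC or TTCNNGAA, each its own reverse complement) in the first 3 sequences. In the last 2 they mark the ER stress response element, which begins with CCAAT and ends with CCACG, searched on both strands. The windows are chr17:34972157-34972406, chr17:34959239-34959488 and chr5:149636337-149636586 on the minus strand, chr2:34771840-34772089 on the plus strand and chr10:86705445-86705694 on the minus strand.
Hspa1a: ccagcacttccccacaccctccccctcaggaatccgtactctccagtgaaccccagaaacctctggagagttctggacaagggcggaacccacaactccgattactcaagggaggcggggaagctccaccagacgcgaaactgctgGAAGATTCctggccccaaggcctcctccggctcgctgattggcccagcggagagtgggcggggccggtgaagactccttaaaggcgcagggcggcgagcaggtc
Hspa1b: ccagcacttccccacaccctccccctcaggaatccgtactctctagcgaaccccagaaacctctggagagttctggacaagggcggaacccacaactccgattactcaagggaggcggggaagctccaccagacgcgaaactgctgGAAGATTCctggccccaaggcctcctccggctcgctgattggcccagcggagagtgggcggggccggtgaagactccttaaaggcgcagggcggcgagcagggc
Hsph1: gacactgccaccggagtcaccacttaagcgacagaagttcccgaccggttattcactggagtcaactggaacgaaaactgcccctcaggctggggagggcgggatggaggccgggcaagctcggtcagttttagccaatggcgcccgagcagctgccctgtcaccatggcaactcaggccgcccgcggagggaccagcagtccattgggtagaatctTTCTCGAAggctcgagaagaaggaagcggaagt
Hspa5: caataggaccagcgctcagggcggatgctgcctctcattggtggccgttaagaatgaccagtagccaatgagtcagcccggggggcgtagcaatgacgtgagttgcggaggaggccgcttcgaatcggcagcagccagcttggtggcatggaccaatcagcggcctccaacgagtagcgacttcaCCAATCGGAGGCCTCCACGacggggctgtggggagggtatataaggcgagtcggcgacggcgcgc
Hsp90b1: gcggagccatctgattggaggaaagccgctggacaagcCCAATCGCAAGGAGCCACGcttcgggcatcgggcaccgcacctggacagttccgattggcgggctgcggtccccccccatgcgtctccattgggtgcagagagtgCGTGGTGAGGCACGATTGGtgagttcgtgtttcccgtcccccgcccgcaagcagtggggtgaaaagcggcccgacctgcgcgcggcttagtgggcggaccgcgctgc
The *Hspa1a* and *Hspa1b* windows differ at 3 of 250 bases, and both hold the heat shock element 104 bases before the start. *Hspa5* holds 1 ER stress response element, 65 bases before the start, and *Hsp90b1* holds 2 farther upstream. Windows that also take in the 50 bases after the start were given for 8 of the 10 members. *Hspa8* and *Hsp90aa1* had none. A heat shock element of 2 units occurred in 5 of these 8 members (*Hspa1a*, *Hspa1b*, *Hspb1*, *Hsph1* and *Hspd1*) and in 15.1% of all 32851 windows. The longer form of 3 units (searched on both strands, and containing the short form) occurred in *Hsph1*, after its start, and in *Hspd1*, and in 0.662% of these genes. The ER stress response element occurred in *Hspa5* and *Hsp90b1* and in 0.137% of these genes. The full palindrome of the estrogen response element, searched on both strands, occurred in 0.0740% of these genes and in none of the members' windows. These matches describe letters in a window and are not evidence of binding.

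The values are normalized signal on a linear scale, with a floor of 22.1 for genes without expression, and the read depth behind them is unknown. The signal summed over all genes, in mega units, lay between 44.5 and 54.5 in all libraries except PH 14-day replicate 5, where it was 72.9. That library also had the largest value of SV1, the surrogate variable used as covariate (0.785, against at most 0.194 in the other PH libraries), and the highest summed level of the 9 neuron markers (346528). POA 14-day replicate 6 had the lowest sum, the lowest neuron marker sum (172206) and the highest ependymal marker sum of the POA (7161). All 9 neuron markers and all 8 astrocyte, 7 oligodendrocyte and 7 microglia markers were above 2 times the floor in every library, and of 15 hypothalamic neuron genes only *Kiss1* in both regions and *Hcrt* and *Nr5a1* in the POA were below it in some. The summed level of the 8 endothelial markers in the PH was 8847 to 10065 in intact, 9994 to 12591 in 14-day and 10852 to 14751 in 4-month libraries, and that of the 7 microglia markers 11902 to 13183, 12270 to 14070 and 13232 to 15242. The summed level of 5 red cell genes was 6507 to 8426 in intact, 6965 to 14599 in 14-day and 12094 to 37251 in 4-month PH libraries. For these 3 sets the intact and 4-month PH libraries did not overlap. In the POA the intact and 4-month libraries overlapped for the same sets, and the other marker sets overlapped in both regions. The part of these sets in the differences of the members was not tested. In bulk tissue, fewer cells of a type and less RNA per cell cannot be told apart.

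The first group of members is the inducible cytosolic machinery. *Hspa1b* measured 156, 311, 438 and 348 in the 4 intact PH libraries. At 14 days it ranged from 287 to 446 with a median of 387, and at 4 months from 182 to 500 with a median of 291. The groups overlapped, and the lowest values of all were an intact library and a 4-month library of batch 1. In the POA, *Hspa1b* measured 196, 324, 455, 390 and 337 in intact mice, 311 to 583 (median 414) at 14 days and 228 to 551 (median 278) at 4 months. Here 4 of the 6 4-month libraries lay below every 14-day library. With SV1 in the fit, the log2 difference at 14 days against intact was 0.49 ± 0.25 (SE) for the PH and 0.40 ± 0.19 for the POA, and at 4 months against 14 days it was -0.48 ± 0.23 and -0.43 ± 0.18. The unadjusted p of these 4 differences were 0.0643, 0.0469, 0.0521 and 0.0262, and the adjusted p (limma, Benjamini-Hochberg) were 0.806 or higher. The 14-day difference was 0.21 without PH intact replicate 1 (unadjusted p = 0.403) and 0.26 without POA intact replicate 1 (unadjusted p = 0.188), the lowest library of each region.

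*Hspa1a*, the other inducible copy, measured 267, 316, 587 and 517 in intact PH libraries, 361 to 642 (median 467) at 14 days and 303 to 663 (median 452) at 4 months. In the POA it measured 294, 397, 691, 475 and 567 in intact mice, 379 to 756 (median 516) at 14 days and 294 to 767 (median 393) at 4 months. The lowest intact libraries in either region were the 2 of batch 1, and the groups overlapped. Its log2 difference at 14 days was 0.34 ± 0.21 for the PH, or 0.17 without intact replicate 1, and 0.31 ± 0.18 for the POA. Summed into 1 gene, the 2 copies gave 0.40 ± 0.21 for the PH (unadjusted p = 0.0773) and 0.36 ± 0.17 for the POA (unadjusted p = 0.0459) at 14 days, and -0.31 ± 0.20 and -0.31 ± 0.16 at 4 months against 14 days.

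*Dnajb1* encodes the J-domain partner that recruits HSP70 to its substrates. It measured 2069, 3177, 3248 and 3137 in intact PH libraries, 1691 to 3466 (median 3032) at 14 days and 2022 to 3317 (median 2611) at 4 months. The single lowest value belonged to PH 14-day replicate 5. The plain difference of the group means at 4 months against 14 days was only -0.05 on the log2 scale, whereas with SV1 as covariate it was -0.26 ± 0.10 (unadjusted p = 0.0219). Without replicate 5 it was -0.27 with an unadjusted p of 0.0265, and within batches the sign was not shared, at -0.22 in batch 1 and 0.11 in batch 2. In the POA, *Dnajb1* measured 2466, 2783, 3748, 3049 and 3059 in intact mice, 2427 to 3744 (median 3074) at 14 days and 2410 to 3434 (median 2525) at 4 months, a log2 difference of -0.19 ± 0.10 between the 2 OVX groups. Without POA 14-day replicate 6, the library with the lowest 14-day value, this became -0.29 with an unadjusted p of 0.000949 and an adjusted p of 0.282 (limma). With all libraries, the plain difference was -0.31 in batch 1 and -0.08 in batch 2, and the exact permutation test within batches gave p = 0.115.

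*Hsph1* encodes HSP110, a nucleotide exchange factor of HSP70. In the PH it measured 19133, 16840, 15747 and 13494 in intact mice, 13295 to 21345 (median 19990) at 14 days and 11971 to 16906 (median 14071) at 4 months. Within batch 1, the 14-day libraries lay between 19185 and 21092 and the 4-month libraries between 15025 and 16906. Within batch 2, they lay between 13295 and 21345 and between 11971 and 13116. Thus in either batch every 4-month library was below every 14-day library, and the exact permutation test over splits within batches gave p = 0.005, the smallest p that it allows. Over all splits, without regard to batch, the exact permutation p was 0.0411. The limma fit with SV1 gave a log2 difference of -0.22 ± 0.10, an unadjusted p of 0.0392 and an adjusted p of 1.00.

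In the POA, *Hsph1* measured 15720, 18039, 14789, 13746 and 14347 in intact mice, 13253 to 19342 (median 16155) at 14 days and 11830 to 17469 (median 14028) at 4 months. In batch 1 the 4-month libraries (13962 to 17469) lay below the 14-day libraries (17591 to 19342), and in batch 2 they overlapped (11830 to 14093 against 13253 to 14720). At 4 months against 14 days the log2 difference was -0.20 ± 0.06, with rank 104 of 21366 genes by p, an unadjusted p of 0.0036 and an adjusted p of 0.732 (limma). The exact permutation test within batches gave p = 0.04. Against intact mice the 4-month difference was -0.18 ± 0.06 (unadjusted p = 0.00857, adjusted p = 0.383, limma). *Hsph1* kept a negative sign at 4 months against 14 days in each of the 29 PH and 30 POA alternatives, from -0.36 to -0.17 and from -0.29 to -0.09, with adjusted p of at least 0.457 and 0.318.

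**Figure D1:**
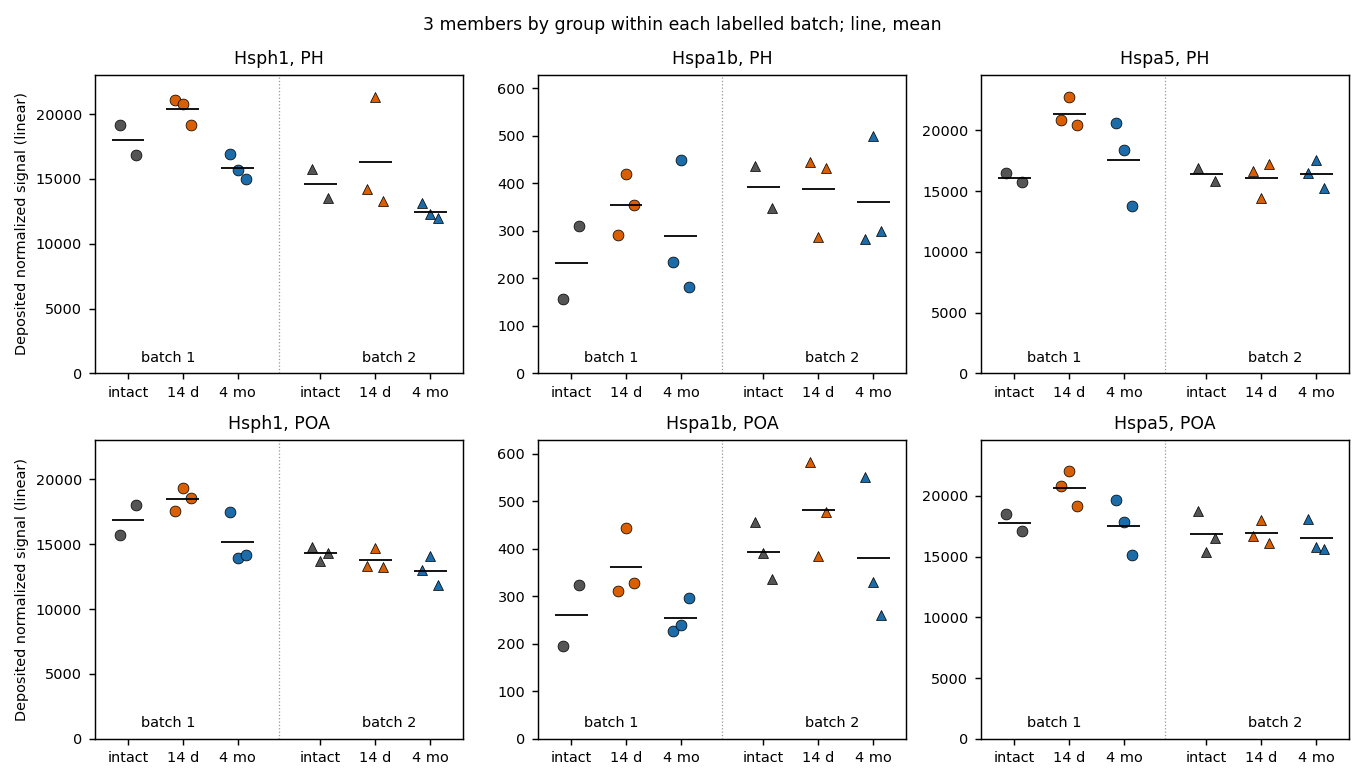
*Hsph1*, *Hspa1b* and *Hspa5* (columns) in the PH and POA (rows), as deposited normalized signal on a linear axis from 0, by group within each labelled batch; points are libraries and lines are means. *Hsph1* at 4 months lies below all 14-day libraries in both batches of the PH and in batch 1 of the POA. *Hspa5* at 14 days lies above the intact libraries in batch 1, with 3 against 2 libraries, and not in batch 2. The share of all genes separated in this way within a batch was not counted.

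*Hspb1* encodes the small heat shock protein HSP25, which holds unfolded proteins without ATP. It measured 192, 224, 323 and 249 in intact PH libraries, 219 to 292 at 14 days and 238 to 319 at 4 months, and the log2 differences were 0.10 ± 0.13 at 14 days and 0.12 ± 0.13 at 4 months against intact. In the POA it measured 237, 230, 275, 329 and 301 in intact mice, 182 to 535 at 14 days and 175 to 333 at 4 months. The highest value was that of POA 14-day replicate 6. The difference at 14 days against intact was 0.20 ± 0.14 with that library and 0.08 without it.

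*Hspa8* encodes the constitutive HSP70 of the cytosol, which also uncoats clathrin vesicles at synapses, and *Hsp90aa1* the inducible form of cytosolic HSP90. In the PH, *Hspa8* measured 95576, 90939, 87638 and 92850 in intact mice, 86048 to 112185 (median 106020) at 14 days and 76389 to 100745 (median 89470) at 4 months. In the POA it ranged from 87870 to 98632 in intact mice, from 77592 to 109914 at 14 days and from 79917 to 101360 at 4 months. Its log2 differences were small: PH 0.12 ± 0.09 and POA 0.01 ± 0.06 at 14 days, and -0.14 ± 0.08 and -0.06 ± 0.06 at 4 months against 14 days. *Hsp90aa1* measured 96818, 76637, 72509 and 67634 in intact PH libraries, 57921 to 107036 at 14 days and 52910 to 90187 at 4 months. The 14-day PH libraries fell in 2 clusters, with the 3 of batch 1 and replicate 5 of batch 2 at 99398 or more, and the other 2 of batch 2 at 57921 and 58065. In the POA, *Hsp90aa1* ranged from 63286 to 88470 in intact mice, 54074 to 102641 at 14 days and 58414 to 90448 at 4 months. At 4 months against 14 days, its log2 difference was -0.17 ± 0.16 for the PH and -0.11 ± 0.05 for the POA (unadjusted p = 0.047), and the latter was -0.07 without POA 4-month replicate 3.

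*Hspa5* encodes BiP, the HSP70 of the ER and sensor-binding chaperone of the unfolded protein response. In the PH it measured 16463, 15771, 16952 and 15836 in intact mice, 14453 to 22782 (median 18849) at 14 days and 13800 to 20646 (median 17023) at 4 months. All 3 14-day libraries of batch 1 (20482 to 22782) lay above both intact libraries of that batch, whereas in batch 2 the 14-day libraries (14453 to 17216) spanned the intact ones. The exact permutation test of 14 days against intact within batches gave p = 0.12. How many of all genes were separated in batch 1 was not counted. The log2 difference at 14 days was 0.41 in batch 1 and -0.03 in batch 2, and 0.22 ± 0.12 in the fit of all libraries (unadjusted p = 0.076). Without PH 14-day replicate 5, which had the lowest 14-day value, it was 0.25 with an unadjusted p of 0.0222. In the POA, *Hspa5* measured 18471, 17069, 18749, 15379 and 16506 in intact mice, 16125 to 22014 at 14 days and 15104 to 19641 at 4 months. The difference of the 2 OVX groups was -0.14 ± 0.06 (unadjusted p = 0.0383), again larger in batch 1 (-0.24) than in batch 2 (-0.04).

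*Hsp90b1* encodes GRP94, the HSP90 of the ER, which folds secreted and membrane proteins. It measured 28596, 22172, 22278 and 22141 in intact PH libraries, 19052 to 32240 at 14 days and 17940 to 28157 at 4 months. In the POA it ranged from 20102 to 26889 in intact mice, 19119 to 30421 at 14 days and 19555 to 28852 at 4 months. Its log2 difference was 0.06 ± 0.11 (PH) and 0.01 ± 0.06 (POA) at 14 days, and -0.09 ± 0.10 and -0.10 ± 0.05 at 4 months against 14 days. *Hspd1* encodes HSP60, which folds proteins imported into the mitochondrial matrix. It measured 11643, 9829, 9974 and 9286 in intact PH libraries, 8907 to 12653 at 14 days and 7688 to 10769 at 4 months. In the POA it measured 10911, 11221, 9815, 8983 and 9604 in intact mice, 7151 to 12080 at 14 days and 8256 to 11304 at 4 months. At 4 months against intact the POA difference was -0.13 ± 0.06 (unadjusted p = 0.026, adjusted p = 0.505, limma), and in the PH it was -0.08 ± 0.10.

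**Figure D2:**
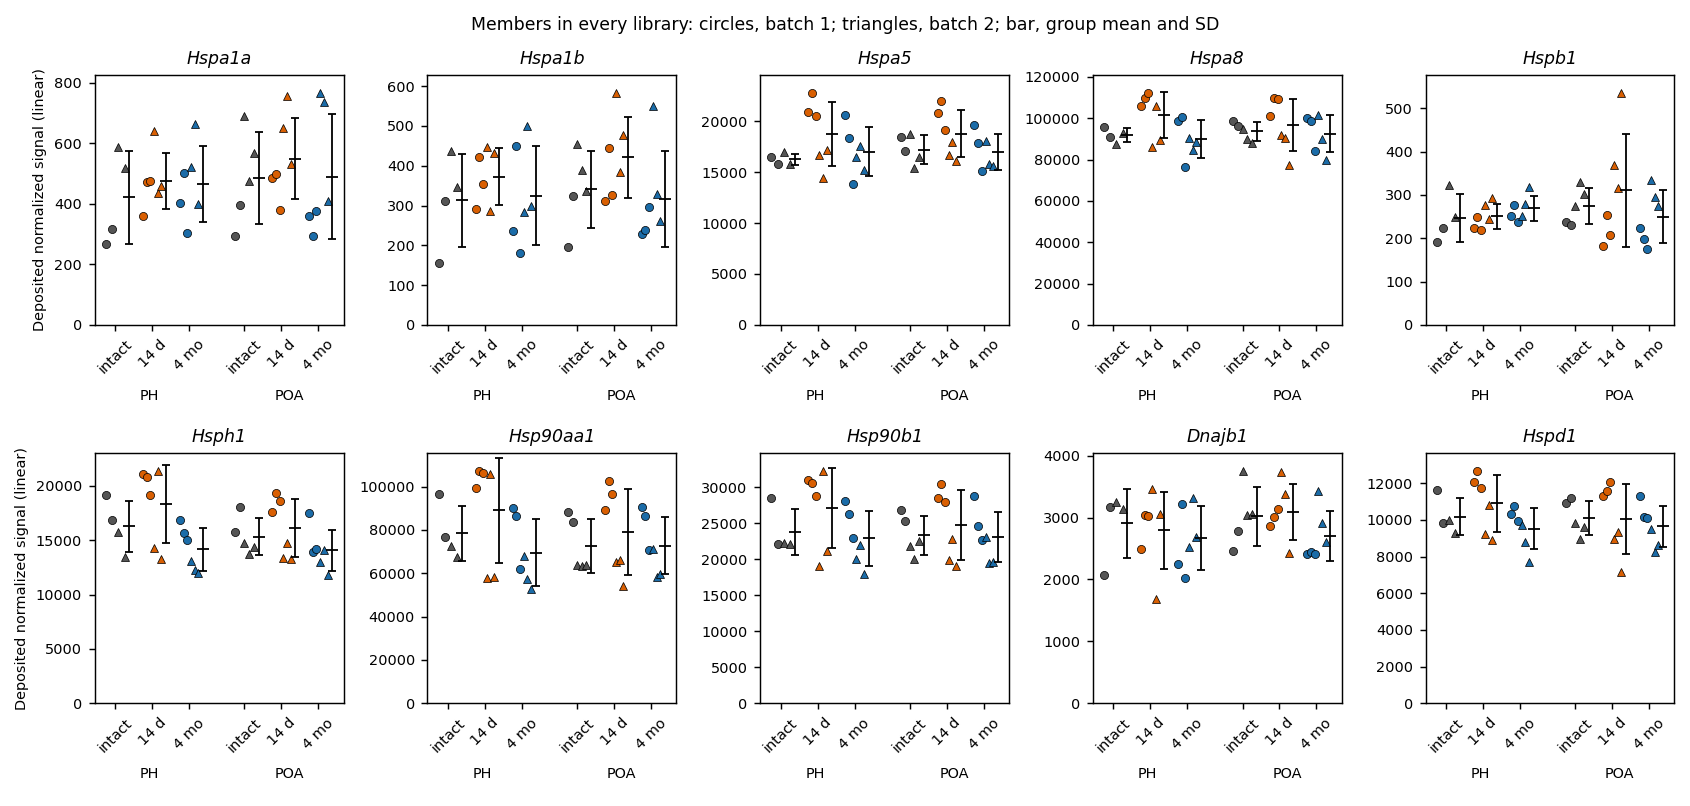
Deposited normalized signal (linear axis from 0) of the 10 members in every library by region and group, with circles for batch 1, triangles for batch 2 and a bar for the group mean and SD. The groups of each member overlap in either region, and for *Hsp90aa1*, *Hsph1*, *Hsp90b1* and *Hspd1* most batch 1 libraries lie above those of batch 2.

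Counted over the members, at 14 days against intact 0 of 10 were called in the PH, where 0% of the 21998 genes tested were called, and 0 of 10 in the POA, where 0.00468% of 21366 genes were. At an unadjusted p under 0.05, 0 members passed in the PH (3.04% of all genes in either direction) and 1, *Hspa1b*, was higher in the POA (2.84% of all genes higher). The difference was above 0 for all 10 members in the PH, where 49.4% of all genes were above 0, and for 9 of 10 in the POA (47.8% of all genes), with *Hspd1* the exception. The median difference of the members was 0.10 (PH) and 0.04 (POA), beside medians of -0.002 and -0.006 over all genes tested. Without SV1, *Dnajb1* in the PH was below 0 (-0.07). In batch 2 alone, the plain differences of *Hspa1a*, *Hspa1b*, *Hspa5*, *Hspb1*, *Dnajb1* and *Hspd1* were below 0 in the PH. Those of *Hspa8*, *Hsph1*, *Hsp90aa1*, *Hsp90b1*, *Dnajb1* and *Hspd1* were below 0 in batch 2 of the POA. In batch 1 alone, only *Hspb1* in the POA was below 0, so the shared direction was seen mostly in batch 1. The batch 2 signs rest on 3 14-day libraries a region, among them PH replicate 5 and POA replicate 6. They were not computed without these libraries, and *Hspd1* in batch 2 of the PH was at -0.0003. Members in 1 region were measured in the same libraries and are not independent, so these shares are descriptions.

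At 4 months against intact, 0 of 10 members were called in either region, beside 0.0318% (PH) and 0.0936% (POA) of all genes. At an unadjusted p under 0.05, 0 members passed in the PH (6.07% of all genes in either direction), and *Hsph1* and *Hspd1* were lower in the POA (4.4% of all genes lower). In the PH, 4 members were above 0 and 6 below. In the POA, 9 were below 0 (53.5% of all genes), and *Hspa1a* was above. The median over the members was -0.03 (PH) and -0.08 (POA). Since the 3 comparisons of a region share libraries, their values for a member are not separate evidence.

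At 4 months against 14 days, 0 of 10 members were called in either region, beside 0.00909% (PH) and 0.0281% (POA) of all genes. At an unadjusted p under 0.05, *Dnajb1* and *Hsph1* were lower in the PH (2.02% of all genes lower) and *Hsph1*, *Hspa1b*, *Hspa5* and *Hsp90aa1* were lower in the POA (2.64% of all genes lower). In the PH, 9 members were below 0, beside 52.8% of all genes, with *Hspb1* the exception at 0.02 ± 0.12. In the POA all 10 were below 0, beside 51.1% of all genes. The median of -0.17 in either region stood beside medians of -0.008 and -0.002 over all genes tested. No member had all libraries of 1 group beyond those of the other in any comparison. Of all genes, 0.573% did at 14 days and 0.95% at 4 months against intact and 0.236% between the OVX groups in the PH, and the POA shares were 0.412%, 0.665% and 0.112%. Without the libraries that stood apart, 3 members in the PH (without 14-day replicate 5) and 7 in the POA (without 14-day replicate 6) had an unadjusted p under 0.05, all lower, beside 2.74% and 5.55% of all genes lower in the same fits, and the medians were -0.17 and -0.16.

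**Figure D3:**
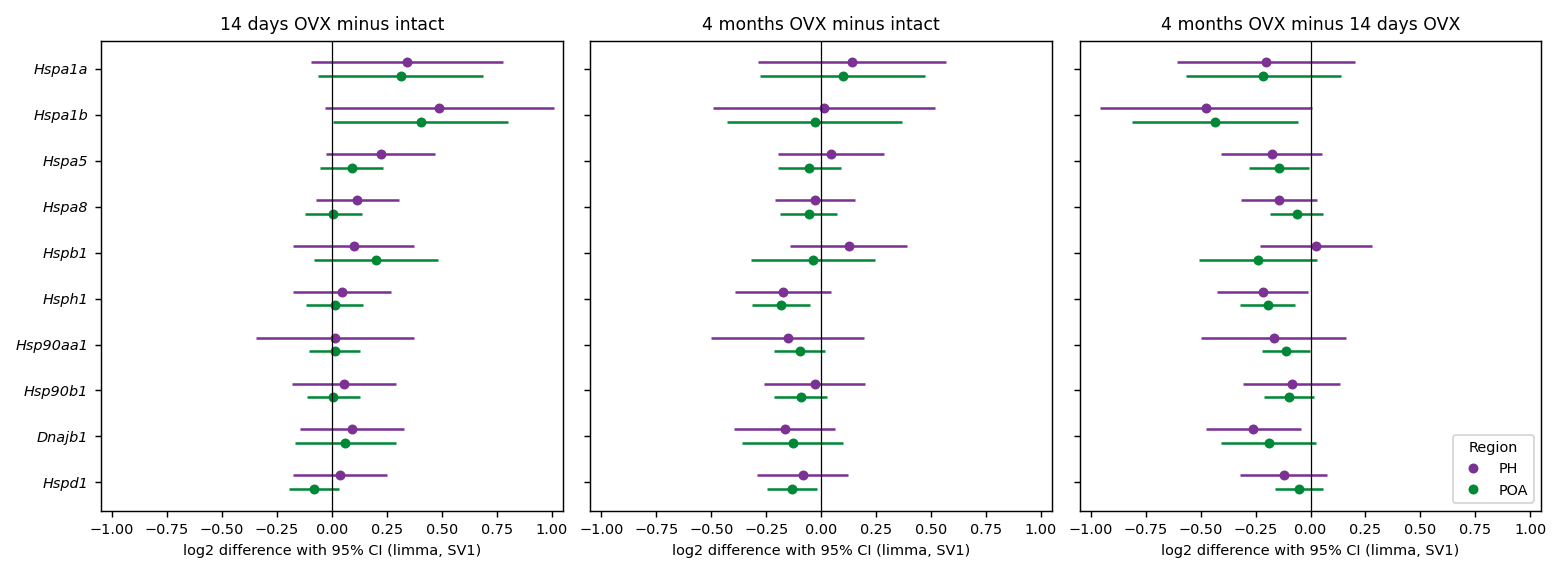
Log2 differences of the 10 members in 3 comparisons (panels), PH and POA, from limma with SV1; points are estimates and lines 95% confidence intervals. At 4 months minus 14 days all estimates except *Hspb1* in the PH lie below 0, and the widest intervals are those of *Hspa1a* and *Hspa1b*.

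The 95% intervals show which sizes remain possible. At 14 days, the interval of *Hspa1b* ran from 0.978-fold to 2.01-fold (PH) and from 1.00-fold to 1.74-fold (POA). For *Hspa8* the intervals at 14 days were 0.950-fold to 1.23-fold (PH) and 0.918-fold to 1.10-fold (POA).

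Whether the response differed between regions was tested as an interaction over all 33 libraries. This fit treated the libraries of the regions as separate, although they may come from the same mice. With regions of the same group and number as a random block, 0 members were called. None of the 10 members was called in any of the 3 interactions, beside 1, 2 and 0 of 22141 genes (0.00452%, 0.00903% and 0%), and no member had an unadjusted p under 0.05, beside 3.01%, 4.08% and 2.44% of all genes. The largest estimate was that of *Hspb1* at 4 months against 14 days, 0.26 ± 0.18 higher in the PH, with an interval from -0.10 to 0.62. For *Hsph1* the difference between the regions at 4 months against 14 days was -0.02, with an interval from -0.26 to 0.21.

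The comparison of batches was added after the spread of the members over batches was seen. In the POA, with group in the fit, all 10 members were called between batch 1 (8 libraries) and batch 2 (9 libraries), where 39.7% of all genes were called (limma). *Hspa1a* (-0.69 ± 0.13), *Hspb1* (-0.64 ± 0.11), *Hspa1b* (-0.51 ± 0.14) and *Dnajb1* (-0.22 ± 0.08) were lower in batch 1. *Hsp90aa1* (0.49 ± 0.06), *Hsp90b1* (0.36 ± 0.06), *Hspd1* (0.32 ± 0.06), *Hsph1* (0.30 ± 0.06), *Hspa8* (0.16 ± 0.06) and *Hspa5* (0.15 ± 0.06) were higher. The libraries of the batches did not overlap for *Hspb1* and *Hspd1*. The share of all genes whose batches did not overlap was not counted, so this is a description. Without POA 14-day replicate 6, 9 members were called (40.3% of all genes), and *Hspa5* was not (adjusted p = 0.0763, limma).

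In the PH, 0 members were called between the 8 libraries of each batch (1.28% of all genes), with the same signs as in the POA for all 10. Without PH 14-day replicate 5, 6 members were called, beside 24.3% of all genes. *Hsph1* (0.41 ± 0.06), *Hsp90aa1* (0.52 ± 0.10), *Hsp90b1* (0.39 ± 0.07) and *Hspd1* (0.28 ± 0.06) were higher in batch 1, and *Hspa1a* (-0.51 ± 0.14) and *Hspb1* (-0.28 ± 0.09) lower. In replicate 5, a library of batch 2, *Hsph1* was 21345, against 13295 and 14246 in the other 14-day libraries of that batch, and *Hsp90aa1* was 105771, against 57921 and 58065. What the labels call a batch is not described further, and each group had 2 or 3 libraries in each batch.

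**Figure D4:**
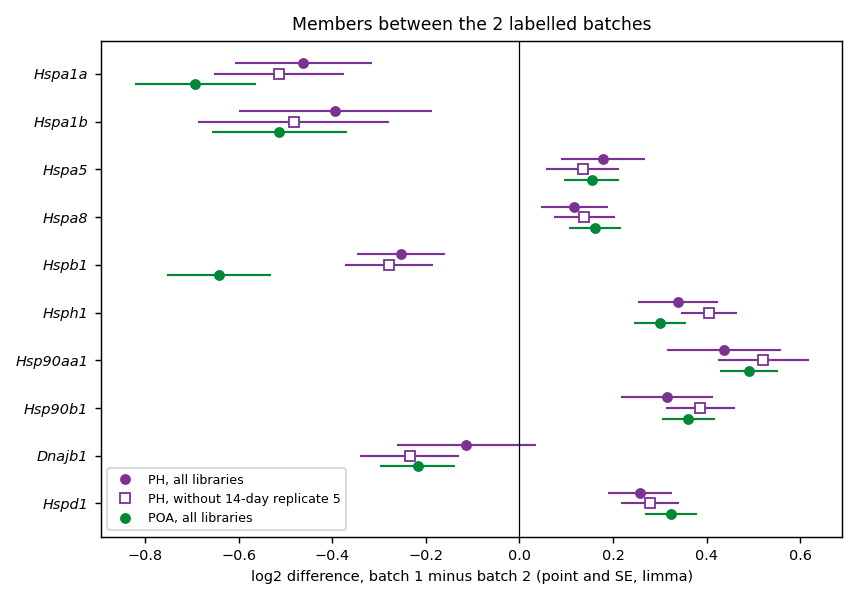
Log2 difference between batch 1 and batch 2 for the 10 members (points, with SE) from limma with group in the fit, for the PH with and without 14-day replicate 5 and for the POA. *Hspa1a*, *Hspa1b*, *Hspb1* and *Dnajb1* lie left of 0 and the other 6 members right of 0 in both regions.

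Pairs of members were compared across the libraries of a region, over 10 pairs in 2 regions, with Benjamini-Hochberg adjustment over 20 pooled correlations and over 40 within batches. The pair with the highest pooled r, which includes the batch difference both genes shared, was *Hspd1* and *Hsp90aa1*. Their Pearson r was 0.92 (PH) and 0.93 (POA), with rho of 0.96 and 0.94, with the smallest permutation p that 100000 permutations allow, 1e-05, and r was 0.92 and 0.93 without the 2 farthest libraries. Within batches the r of this pair lay between 0.78 and 0.88 with exact permutation p between 0.00243 and 0.0175. *Hspa8* and *Hsp90aa1* gave r of 0.87 (PH) and 0.86 (POA), and 0.86 to 0.99 within batches. Centred on group and batch, r was 0.81 and 0.76 for *Hspd1* and *Hsp90aa1*, 0.84 and 0.90 for *Hspa8* and *Hsp90aa1*, and 0.88 and 0.54 for *Hspa1b* and *Dnajb1* (PH and POA each time). For *Hspa8* and *Hsp90aa1* in batch 2 of the PH, r was 0.35 without the 2 farthest libraries, so that the relation there rested on them.

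The HSP70 system gave r of 0.81 (PH) and 0.73 (POA) for *Hspa1b* and its partner *Dnajb1* (rho 0.90 and 0.71). Within batches, r was 0.93 and 0.77 in the PH (exact permutation p = 0.000818 and 0.00637), and 0.77 and 0.54 in the POA, where neither passed the adjustment. *Hspa1b* and *Hsph1*, both of the HSP70 machinery but on opposite sides between batches, gave pooled r of -0.28 and -0.21 (permutation p = 0.295 and 0.425). Within batches 1 and 2 their r was 0.18 and -0.27 (PH) and 0.60 and 0.16 (POA), and none passed the adjustment. The ER pair *Hspa5* and *Hsp90b1*, whose promoters hold the printed ER stress response elements, gave r of 0.85 in the POA, 0.96 in batch 1 and 0.76 in batch 2. In the PH the same pair gave 0.84 in batch 1 and -0.47 in batch 2, where replicate 5 of the 14-day group had the highest *Hsp90b1* and the lowest *Hspa5* of its batch. *Hspa5* and *Hspa8* in the PH had r of 0.92 in batch 1 and -0.81 in batch 2, so the relation did not hold across batches there. In the POA, *Hspa5* and *Hspa8* gave a pooled r of 0.82, with 0.87 in batch 1 and 0.63 in batch 2. The high r of *Hspa5* in the POA was thus not particular to the ER pair. In all, 15 of 20 pooled correlations and 18 of 40 within batches passed an adjusted p of 0.05. Pairs of other genes were not correlated, so the share that would pass among them is unknown. These counts are therefore descriptions and do not set the members apart from other genes.

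**Figure D5:**
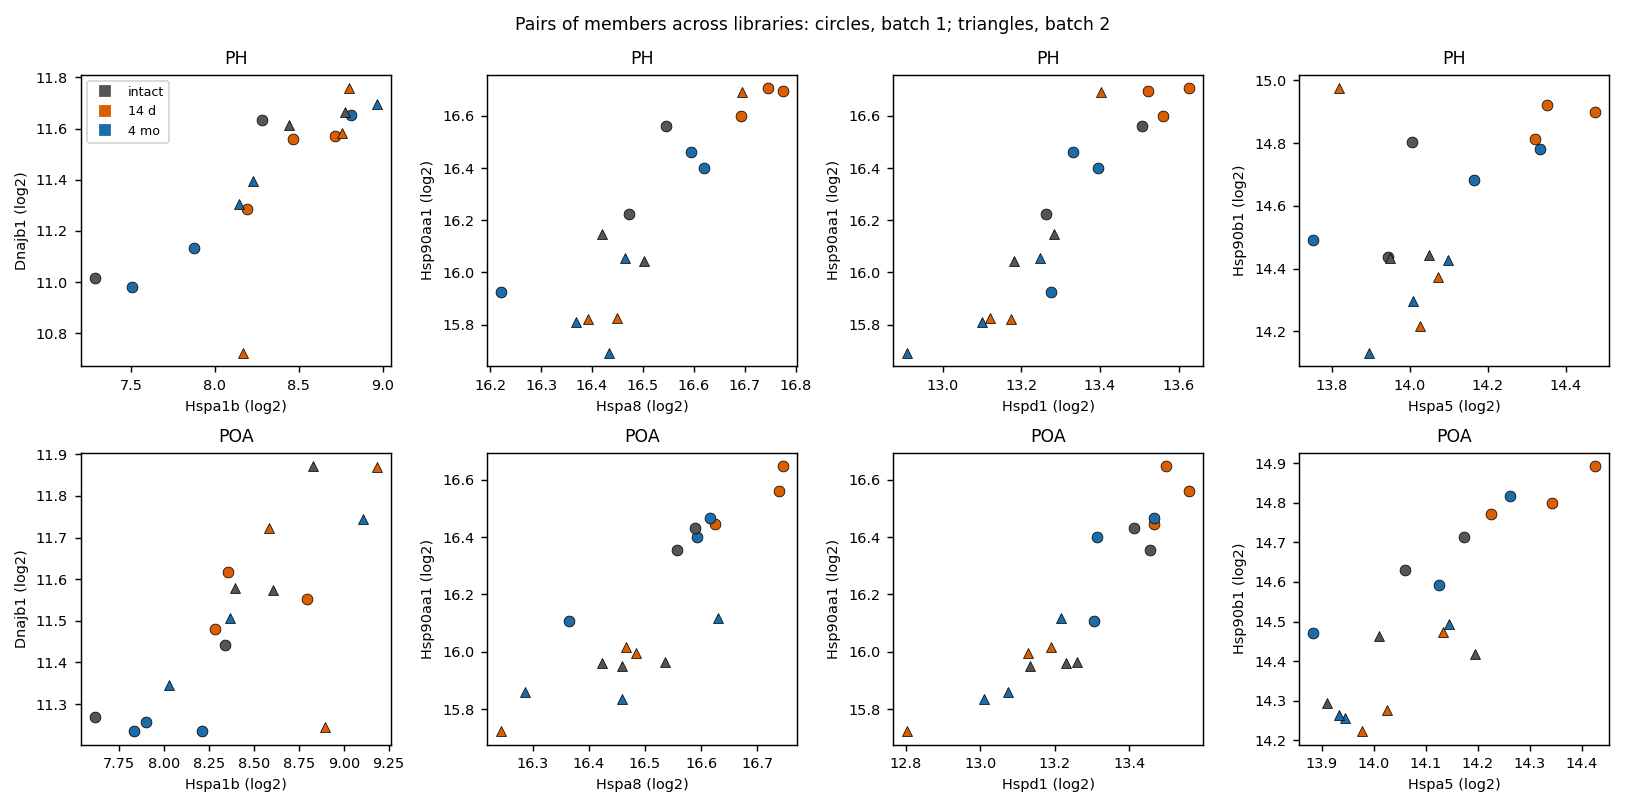
Log2 values of 4 pairs of members across the libraries of the PH (top) and POA (bottom), colored by group, with circles for batch 1 and triangles for batch 2. *Hspd1* and *Hsp90aa1* form 1 band over both batches, whereas *Hspa5* and *Hsp90b1* in the PH do so in batch 1 and not in batch 2.

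Other genes of the same machinery were read from lists. Of 20 further cytosolic heat shock proteins and their factors, 18 co-chaperones, 30 ER chaperones and folding enzymes, 20 genes of the unfolded protein response and 14 mitochondrial chaperones and proteases, none was called in any comparison. *Bag3*, an HSP70 co-chaperone of selective autophagy, had the smallest p of the co-chaperones at 14 days in the PH, where it was 618 ± 62.6 (SD, n = 6) against 516 ± 69.5 in intact mice (n = 4), a log2 difference of 0.33 ± 0.09 with an adjusted p of 1.00 (limma). In the POA its difference at 14 days was 0.22 ± 0.09. *Dnajb5*, a J-domain protein, had the smallest p of the cytosolic list at 4 months in the POA, at 2299 ± 357 against 2880 ± 323 in intact mice, a log2 difference of -0.28 ± 0.06 (adjusted p = 0.132, limma). In the PH at 4 months against 14 days, *Ddit3*, the stress-induced factor CHOP, was 789 ± 17.5 against 955 ± 56.0, a difference of -0.25 ± 0.07 (adjusted p = 0.850, limma).

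Of the 30 genes of the ER list, 26 (PH) and 22 (POA) were below 0 at 4 months against 14 days, beside 52.8% and 51.1% of all genes, with medians of -0.06 and -0.05. In this comparison 3 and 5 were lower at an unadjusted p under 0.05, beside 2.02% and 2.64% of all genes, among them *Canx* and *Sdf2l1* in the PH and the disulfide isomerases *Pdia3* and *Pdia4* in the POA. At 14 days against intact, 23 of 30 were above 0 in the PH (median 0.04, 49.4% of all genes above 0) and 14 in the POA (median -0.01, 47.8%). At 4 months against intact, 17 of 30 were below 0 in the PH (median -0.02, 52.8% of all genes below 0) and 23 in the POA (median -0.03, 53.5%). The cytosolic and co-chaperone lists had medians between -0.07 and 0.01 in all 6 comparisons. The sensors, factors and targets of the unfolded protein response had medians of 0.03 (PH) and 0.02 (POA) at 4 months against 14 days, and the mitochondrial list -0.05 and -0.01.

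Immediate early genes, which respond to neuronal activity and to handling, were the one list with calls. *Btg2*, *Dusp1* and *Npas4* rose in the POA at 4 months, both against intact and against 14 days, 3 of 16 genes each time, beside 0.0936% and 0.0281% of all genes. The list was chosen with earlier results of these data known, so its share of calls is a description and not a test. At an unadjusted p under 0.05, 4 of the 16 were higher and 4 lower at 4 months against intact in the POA. In the PH none was called, with *Npas4* at 0.90 ± 0.21 and *Btg2* at 0.58 ± 0.13 at 4 months against intact (adjusted p = 0.208 for each, limma), and the difference between regions was not tested for these genes. *Dusp1*, a phosphatase of stress-activated kinases that heat shock also induces, was 1030 ± 155 at 4 months against 675 ± 143 in intact mice in the POA, a log2 difference of 0.68 ± 0.09 (adjusted p = 0.00265, limma). The members *Hspa1a* and *Hspa1b* measured 0.10 ± 0.18 and -0.03 ± 0.19 in the same comparison. A link between *Dusp1* and these members was not tested.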

How the data were processed

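Bulk RNA was sequenced from the PH and POA of intact mice and of mice 14 days and 4 months after OVX. Per the labels and methods, the authors quantified mRNA reads with kallisto on mm39 and analysed them with DESeq2 and a surrogate variable. The deposited values are a normalized signal per gene on a linear scale, not counts, so no count test was run and depth is unknown. Which step normalized them is not given in the sources used here, nor whether a surrogate variable was already removed, so SV1 describes what remains in the deposited values. In 108 genes at the floor, the values moved along 1 component, 83.5% of which lay between regions, so levels were not compared between regions or, without lengths, between genes.

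Of 42824 entries, 1259 had no name and were left out, and of 53 symbols on more than 1 entry the entry with the highest mean was used. Genes at 2 times the floor in at least 4 PH or 5 POA libraries were tested. Log2 values were fitted with limma 3.58.1 (trend and robust), per region, on group and 1 surrogate variable (SV1, found in 5 rounds), with Benjamini-Hochberg adjustment over all genes and a threshold of 0.05. A fit over all libraries tested region by group. Exact permutation tests of single members used all splits and splits within batches, and correlations used exact tests within batches and 100000 permutations otherwise. Intervals are 95% intervals. The fits were tested on simulated data for 4 months against intact. Of 67 genes per region given a 1.25-fold change, the PH fit recovered 8 and the POA fit 25. At 1.5-fold these numbers were 35 and 40 of 67, and at 2-fold 57 and 63 of 66. Among unchanged genes, 6 of 21798 (PH) and 9 of 21166 (POA) were falsely called. Most changes of 1.25-fold were thus missed, so the lack of calls among the members does not exclude changes of that size. Same-numbered libraries of different groups did not all correlate above 0.1, except at 4 months against 14 days in the POA (lowest 0.193 of 6 pairs), where 1 of 6 did so once batch means were removed, so the numbers were not used as pairs and the fit with the replicate block is given as an alternative. The genes named from other lists were those called (at most 5 a list and comparison) or, where none was called, taken from the 2 with the smallest p. The members and all lists were chosen with earlier results of these data known.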

Additional observations from a re-analysis of the deposited data

Results flagged for a closer look

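2 of the 60 sets of values (10 members in 6 groups) held a library farther from the rest than Dixon's 95% limit, and chance alone gives about 1 in 20. Both were PH intact replicate 1, a library of batch 1. *Hsp90b1* was 28596 there, the highest of the 4 intact libraries, which otherwise lay between 22141 and 22278. *Dnajb1* was 2069 there, the lowest of the 4, which otherwise lay between 3137 and 3248.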

How the results depend on the processing

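No member was called under any alternative, 29 settings for the PH, 30 for the POA and 36 for the differences between regions. The sign changed in 86 of 1764 member values of the group comparisons (4.88%) and in 122 of 1080 values of the differences between regions (11.3%). Most settings share nearly all libraries with the reported fit, so these low shares are not independent checks. Where the reported difference exceeded its SE the sign changed in 11, all from 1 batch alone, which holds 2 or 3 libraries a group. Smaller differences whose sign changed in 1 batch alone are not listed here. In batch 2 of the PH these were, at 14 days against intact, *Hspa1a* (-0.12), *Hspa1b* (-0.0322) and *Hspa5* (-0.0279), and, at 4 months against 14 days, *Hspa1a* (0.0316), *Hspa5* (0.0296) and *Dnajb1* (0.11). In batch 1 of the POA they were *Hspb1* (-0.14) and *Hspd1* (0.0748) at 14 days, and in batch 2 of the POA *Hspa8* (0.0600), *Hsp90aa1* (0.0261) and *Hsp90b1* (0.0129) at 4 months against 14 days. The cause was not tested. Of 60 exact tests of single members, 1 had p under 0.05 when all splits were used and 5 when splits were kept within batches. The number of members called between PH batches went from 0 to 6 without PH 14-day replicate 5. Leaving out 1 library at a time gave 0 to 4 members with an unadjusted p under 0.05 in the PH and 1 to 7 in the POA at 4 months against 14 days. With the replicate block, 0 members were called, and at an unadjusted p under 0.05 the counts at 14 days, at 4 months against intact and between the OVX groups were 4, 1 and 5 (PH) and 3, 0 and 3 (POA), against 0, 0 and 2 and 1, 2 and 4 without it. Depth is unknown, and the number of libraries limits the precision.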
